A study of Mus musculus with 2 samples.

Results

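Myc and its neighbour Pvt1 lie next to each other on chromosome 15 of the mouse, and RNA polymerase II (Pol II) was described here across the 320 kb that hold both, from 61.78 to 62.1 Mb of that chromosome (positions here are those of the mm8 build). The locus is defined by its position, and it was chosen with earlier results of these data known. It holds 640 windows of 500 bp, of which 632 had a read in at least 1 library, out of 4308660 such windows in the nuclear genome. Pol II was mapped by chromatin immunoprecipitation and sequencing in mouse embryonic fibroblasts, cells of connective tissue taken from embryos into culture and grown in DMEM with 10% serum. Both samples used the antibody 8WG16, which recognises the repeated tail of the enzyme's largest subunit. There is 1 group without a treatment or a genetic change in the labels, and its members are called library 1 and library 2 here. The gel slice of amplified fragments was 150 to 350 bp for library 1 and 150 to 300 bp for library 2. Strain, passage and separate cultures are not given in the sources used here, so the spread between the libraries may be technical.

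Myc encodes a transcription factor that pairs with Max and drives cell growth and division, and it is a classic early response gene of fibroblasts given serum. Pvt1 is a long noncoding RNA gene that follows Myc on the same strand, and it is known as a site of chromosome translocations and retroviral insertions in mouse tumours. Pol II often gathers just after a transcription start before it moves into the gene, so a narrow peak at the start and a lower, longer level over the body are the usual pattern of a transcribed gene. In the GRCm38.p6 gene table of RefSeq, the nearest listed neighbours are the pseudogene Gm18788 before Myc and the transcribed pseudogene Macroh2a3 after the start of Pvt1. No gene annotation of mm8 was used. The Myc summit was the window with the highest mean level between 61.81 and 61.83 Mb, and the Pvt1 summit that between 61.86 and 61.88 Mb. Both genes are read toward higher coordinates, called right here. The cell type in the labels was not checked against marker genes, since that needs the same annotation.

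Library 1 held 17548967 distinct nuclear reads and library 2 held 10941174. Levels are in RPM, reads per 1000000 of these. Background, the mean of windows without a call, was 3.41 reads for library 1 and 1.29 for library 2, or 0.389 and 0.236 RPM per kb. Windows without a read in either library were left out of that mean, which raises it. A window was called when its count exceeded that background by a one-sided Poisson test (exact, adjusted by Benjamini-Hochberg over all 4308660 windows, threshold 0.01), which took at least 12 reads in library 1 and 7 in library 2. No input library was analysed here, and all intervals are 95% and cover counting error only.

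The locus fell into 4 stretches, one near background left of Myc, the Myc region, another near background between the genes, and a Pvt1 tract that reached the right edge. In library 1, 257 of the 632 windows were called (40.7%), against 3.41% of all windows tested in the genome. In library 2, 450 were called (71.2%), against 9.02%. Windows called in both libraries numbered 248 (39.2%), against 2.90%. The locus held 6873 reads of library 1 and 7526 of library 2, 391.6 and 687.9 RPM, or 3.15-fold and 9.11-fold over background. Of the 248 windows, 19 lay in the Myc region and 229 in the Pvt1 tract. The Pvt1 tract thus held most of the called windows. The edges of the stretches were drawn from these same calls. That the Myc region was called from end to end thus largely follows from its definition. The count in both libraries rested on the background: a negative binomial one left 88 windows, a threshold of 0.0001 left 110 and the local background of the surrounding 100 kb left 21. The genome's share of called windows under these settings was not recorded, so these counts are not compared with the genome.

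**Figure D1:**
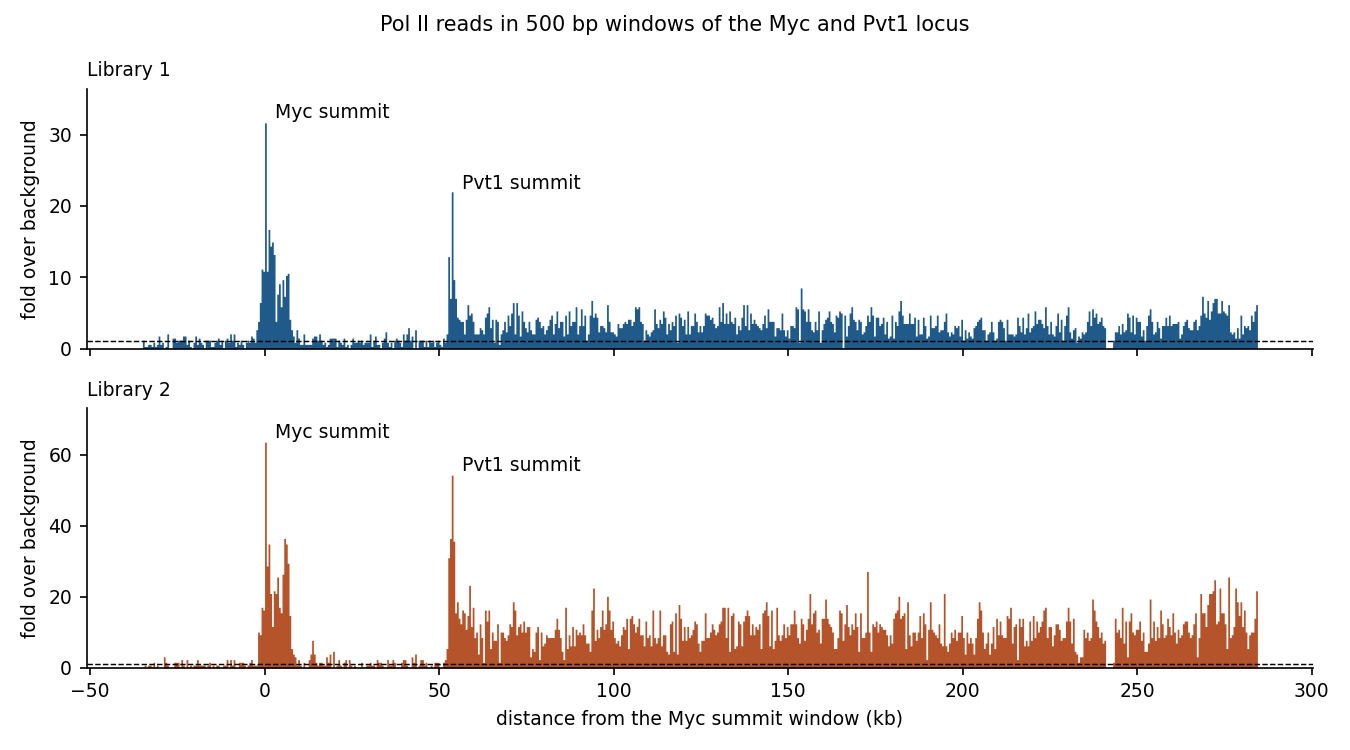
Fold over each library's own background (vertical axis) in 500 bp windows against distance from the Myc summit window in kb, library 1 above and library 2 below, with a dashed line at background. The Myc region and the start of Pvt1 stand out, the stretch between them stays near the line, and Pvt1 keeps a level above it to the right edge.

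The Myc summit was the window from 61815001 to 61815500. It held 108 reads (6.15 RPM) in library 1 and 82 reads (7.49 RPM) in library 2, a mean of 6.82 ± 0.95 RPM (SD, n = 2). Both libraries were thus high there, and their difference did not pass a test between the libraries (adjusted p = 0.37, exact binomial test of library 1 against library 2). The summit was 31.7-fold over background in library 1 (interval 26.0 to 38.2) and 63.5-fold in library 2 (50.5 to 78.8), with adjusted p = 2.6e-115 and 9.6e-112 by the exact Poisson test. In RPM the summits of the libraries lie closer together than their folds, as background in RPM was lower in library 2. Among 12011 Pol II summits of the genome (windows called in each library, at 2 RPM or more on average, with none higher within 2 kb), Myc ranked 1200 by mean height, above 90.0% of them.

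The Myc peak was narrow and lay at the same place in both libraries. Reads of the plus strand start on the left of a bound site and reads of the minus strand on its right, so the site lies between the strands' maxima. In library 1 the plus strand was highest from 61815201 to 61815250 with 16 reads, and the minus strand from 61815301 to 61815350 with 17. In library 2 the plus strand was highest from 61815151 to 61815200 with 14 reads and the minus strand from 61815251 to 61815300 with 16. Strand maxima were thus 100 bp apart in each library. After each read was moved 60 bp toward its fragment's centre, both libraries had their highest 50 bp from 61815201 to 61815250, with 28 reads in library 1 and 25 in library 2. Such a step holds 82.1-fold the background of library 1 and 194-fold that of library 2.

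**Figure D2:**
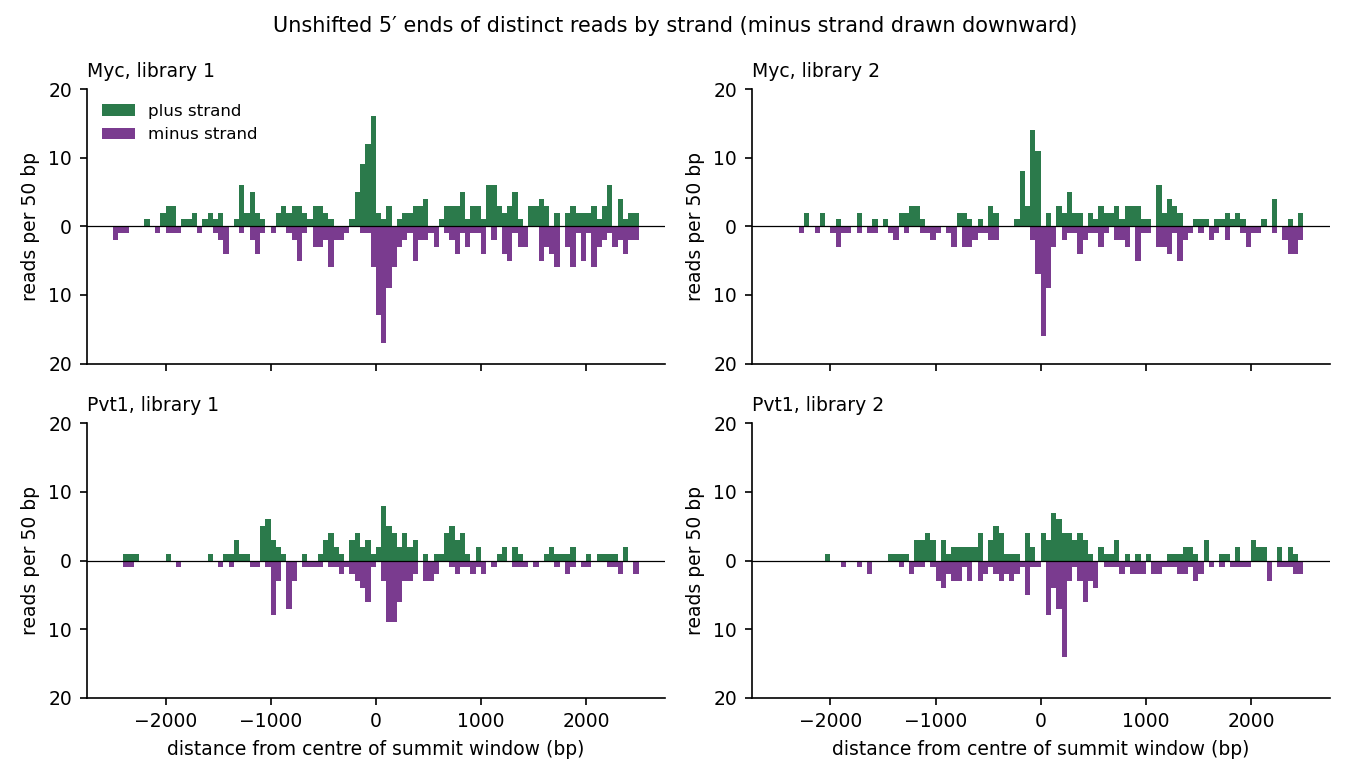
Unshifted 5′ ends of distinct reads per 50 bp, plus strand upward and minus strand downward, against distance in bp from the centre of the Myc (top) and Pvt1 (bottom) summit window, library 1 left and library 2 right. At Myc a single sharp pair of strand maxima reaches 14 to 17 reads, with lower signal on both sides. At Pvt1 the maxima hold 7 to 14 reads and the signal spreads over more than 1 kb.

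Pol II reached beyond the Myc summit on both sides, and further to the right. The region called in both libraries ran from 61813001 to 61822500, 9.5 kb, with 690 reads (39.3 RPM) in library 1 and 587 reads (53.7 RPM) in library 2. Its mean of 46.5 ± 10.1 RPM (SD, n = 2) ranked 586 among 42358 regions called in both. The 2 kb left of the summit, from 61813001 to 61815000, held 3.13 RPM per kb in library 1 and 3.11 RPM per kb in library 2. These levels were 8.06-fold and 13.2-fold over background, and the calls ended there: the window from 61813001 held 13 reads in each library. The window to its left, from 61812501, held 9 reads in library 1 and 1 read in library 2, and neither count was called. Whether the libraries differ at this edge was not tested.

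Reads 1 to 5 kb right of the summit centre outnumbered those 1 to 5 kb left of it, the direction in which Myc is transcribed. In library 1 the flanks held 277 reads on the right and 86 on the left, a ratio of 3.22 (2.52 to 4.15). In library 2 they held 206 and 47, a ratio of 4.38 (3.18 to 6.15). The exact two-sided binomial test, adjusted over all 12011 summits, gave p = 2.6e-23 and 7.0e-24. Unequal flanks to the right in both libraries were found at 20.9% of all summits.

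The Myc body, taken as 1 to 5 kb right of the start of the summit window (61816001 to 61820000), was covered throughout. It held 292 reads in library 1 and 217 in library 2, 4.16 and 4.96 RPM per kb, a mean of 4.56 ± 0.56 (SD, n = 2). These levels were 10.7-fold over background in library 1 (9.51 to 12.0) and 21.0-fold in library 2 (18.3 to 24.0). All 8 windows of the body were called in both libraries, with 13 to 57 reads in library 1 and 15 to 45 in library 2. Per kb the summit stood 2.96 times above the body in library 1 (2.35 to 3.70) and 3.02 times in library 2 (2.32 to 3.91). The libraries thus gave ratios within each other's intervals, 2.99 ± 0.05 (SD, n = 2). The ratio rests on the summit's width: it was 5.21 with 250 bp around the same centre, and 1.93 with a grid moved by 250 bp, which cuts the peak in parts.

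The body was not level in library 1. From 61816001 to 61818000 library 1 held 202 reads (5.76 RPM per kb), and from 61818001 to 61820000 it held 90 (2.56 RPM per kb), a ratio of 2.24 (1.74 to 2.91). Library 2 held 115 reads (5.26 RPM per kb) and then 102 (4.66 RPM per kb), a ratio of 1.13 (0.86 to 1.49). Library 1 thus fell along the body, and in library 2 the interval of the ratio includes equal levels. The window from 61817001 to 61817500 held 51 reads in library 1 and 15 in library 2. With the libraries scaled to their totals over shared calls, this was 3.48-fold higher in library 1 (1.93 to 6.66, adjusted p = 0.0012, exact binomial test). It was the single window of the 19 in the Myc region to pass, against 1.12% of the 410963 windows tested, and its cause was not tested. It no longer passed without a shift, with a shift of 100 bp, or with the libraries scaled by all reads.

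Past the body the level rose again. From 61820001 to 61822000, 5 to 7 kb right of the summit window, library 1 held 129 reads (3.68 RPM per kb) and library 2 held 164 (7.49 RPM per kb). Against the 2 kb just before, these counts were 1.43 times as high in library 1 (1.09 to 1.90) and 1.61 times in library 2 (1.25 to 2.08). Both libraries thus had a second, broader maximum there, a pair of 2 kb pieces chosen after the values were seen. The window from 61821001 was itself a summit of the genome, with 35 reads (1.99 RPM) in library 1 and 45 reads (4.11 RPM) in library 2. Its flanks leaned the other way, to the left, with 278 reads against 45 in library 1 and 206 against 26 in library 2. This left flank is nearly the same stretch as the right flank of the Myc summit, so its lean is not a separate result. As Myc is about 5 kb long, this maximum lies near or past its end, and the exact end was not placed.

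**Figure D3:**
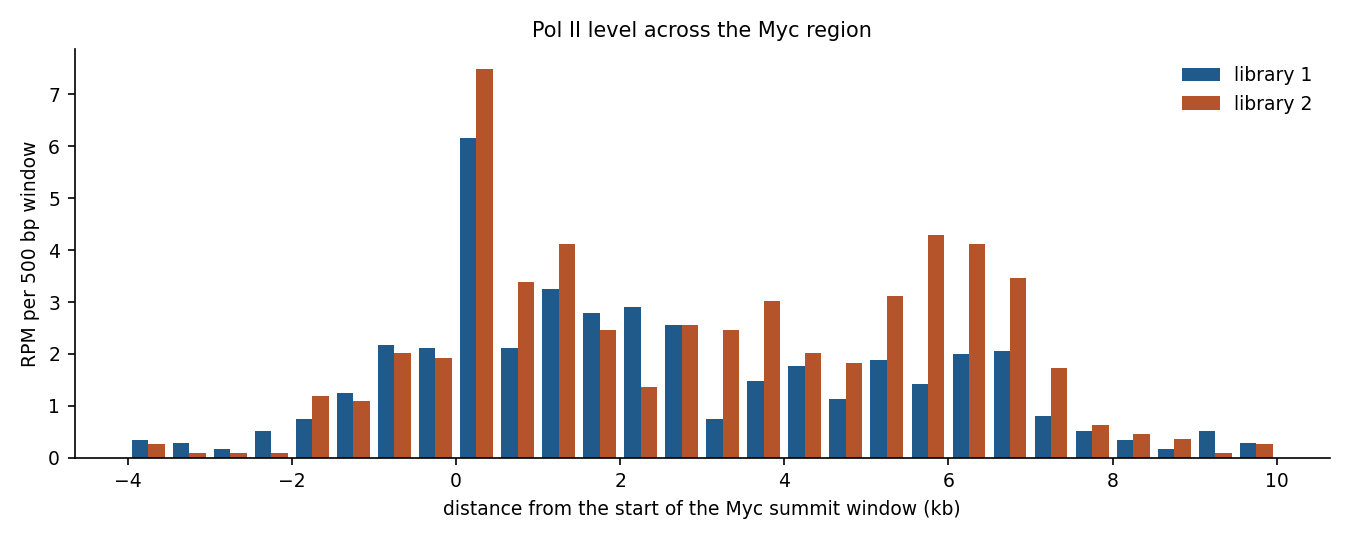
Level in RPM per 500 bp window for library 1 and library 2 against distance in kb from the start of the Myc summit window. Both libraries peak at the summit (6.15 and 7.49 RPM) and have a second maximum between 5 and 7 kb, while library 1 is the higher one in the window 2 kb to the right of it.

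Neither stretch beside Myc held a region called in both libraries. Left of Myc, from the edge of the locus to 61813000, library 1 had 208 reads (0.924-fold of background, 0.802 to 1.06) and library 2 had 70 (0.821-fold, 0.640 to 1.04). None of the 63 windows tested there was called by the Poisson test in either library, and 0 passed an unadjusted p of 0.05 in both (1 in each library alone). No peak upstream of Myc was therefore detectable at this depth. A window needed 12 reads in library 1, and the fullest held 9 reads there and 4 reads in library 2. The 100 kb further left likewise held no called window.

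Between Myc and Pvt1, from 61822501 to 61867500, the level was 1.07-fold of background in library 1 (0.956 to 1.19) and 1.39-fold in library 2 (1.19 to 1.63). None of the 89 windows tested was called in both libraries, and 2 passed an unadjusted p of 0.05 in both. Library 2 alone called 3 of them. They were the windows from 61822501 and 61867001, which adjoin the Myc region and the Pvt1 tract, and the window from 61828501 with 10 reads in library 2 (0.914 RPM) and 5 in library 1 (0.285 RPM). Over wider bins of 5 kb, 2 of 8 between 61825001 and 61865000 passed the same test in both libraries, against 22.4% of all bins of the genome. The bin from 61830001 stood 1.68-fold and 3.53-fold over the background of the bins, and that from 61855001 stood 2.12-fold and 2.79-fold. The bins' background is lower per kb than that of the windows, so these folds are not on the scale of the 1.07-fold and 1.39-fold above. The share of bins that passed lay near that of the genome, so nothing about the locus is read from it.

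Pvt1 began with an abrupt rise. The window from 61867001 held 7 reads in each library, and the next, from 61867501, held 44 reads (2.51 RPM) in library 1 and 40 reads (3.66 RPM) in library 2. The summit followed from 61868501 to 61869000, with 75 reads (4.27 RPM) in library 1 and 70 reads (6.40 RPM) in library 2, a mean of 5.34 ± 1.5 RPM (SD, n = 2). It was 22.0-fold over background in library 1 (17.3 to 27.6) and 54.2-fold in library 2 (42.3 to 68.5), with adjusted p = 1.3e-68 and 1.2e-90 by the exact Poisson test. By mean height it ranked 2455 among the 12011 summits, above 79.5% of them.

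The Pvt1 peak was less sharp than that of Myc. The highest 50 bp of shifted reads lay from 61868851 to 61868900 with 17 reads in library 1, and from 61868901 to 61868950 with 18 reads in library 2. Strand maxima were 50 bp apart in library 1 and 100 bp in library 2, and 2 steps tied for the minus strand of library 1. About 1 kb to the left lay a further rise, where the 100 bp from 61867701 held 20 reads in library 1 and 16 in library 2. The Pvt1 start thus held signal over 4 neighbouring windows, from 61867501 to 61869500, with at least 24 reads each in both libraries. At Myc the 4 windows from 61815001 to 61817000 held at least 27 each, so such a run does not set Pvt1 apart.

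Whether Myc or Pvt1 had the higher summit could not be settled. On the grid used, Myc held 1.44 times the reads of Pvt1 in library 1 (1.06 to 1.96) and 1.17 times in library 2 (0.841 to 1.64), a mean ratio of 1.31 ± 0.19 (SD, n = 2). With 500 bp centred on each highest 50 bp, library 1 gave 1.47 (1.08 to 2.01) and library 2 gave 0.908 (0.661 to 1.25). With the grid moved by 250 bp the ratios were 0.972 and 0.644, so the order of the summits turned with the placement of the windows. The bodies were further apart: per kb, Myc held 3.08 times the level of Pvt1 in library 1 (2.72 to 3.46) and 1.92 times in library 2 (1.67 to 2.20). These ratios compare unlike spans, 4 kb close to the Myc summit and 230.5 kb right of that of Pvt1.

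**Figure D4:**
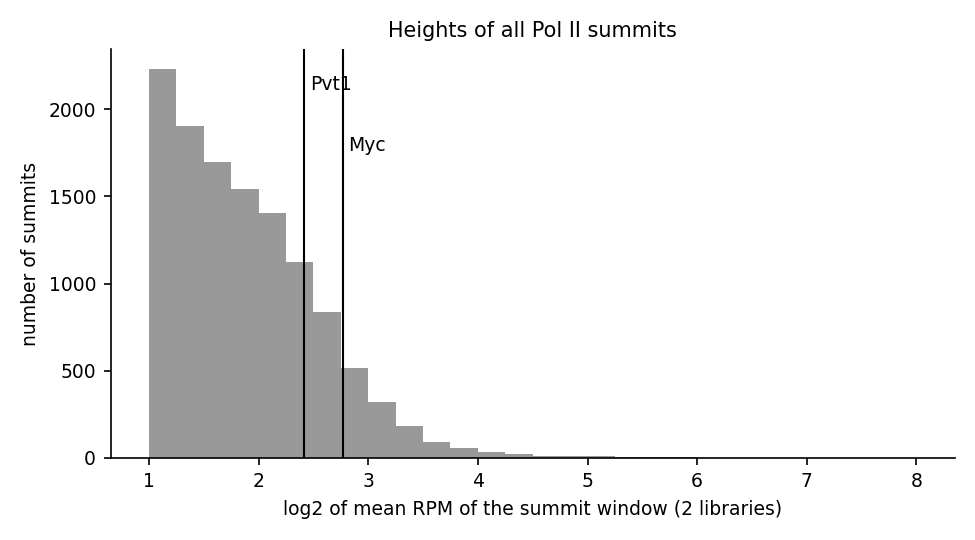
Number of summits of the genome (vertical axis) by log2 of the mean RPM of the summit window over the 2 libraries, with lines at Pvt1 (5.34 RPM) and Myc (6.82 RPM). Both lie in the upper part of the distribution, above 79.5% and 90.0% of all summits.

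To the right of its summit Pvt1 kept a level of Pol II above background over more than 200 kb. The stretch from 61869501 to the right edge is called the Pvt1 body here, and the end of the gene was not placed. In it library 1 held 5471 reads (1.35 RPM per kb) and library 2 held 6504 (2.58 RPM per kb), a mean of 1.97 ± 0.87 RPM per kb (SD, n = 2). These levels were 3.48-fold over background in library 1 (3.39 to 3.57) and 10.9-fold in library 2 (10.7 to 11.2). Library 1 called 234 of the 457 windows tested there and library 2 called 424, with 225 in both. The median window held 12 reads in library 1, which is the smallest count called there, and 14 in library 2, where 7 sufficed. Of the 457 windows, 7 lay below the background mean in library 1, where the lowest held 0 reads, and none did in library 2, where the lowest held 2 reads.

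In steps of 10 kb the level neither fell steadily nor came near background. The first step, which holds the summit, had 1.92 RPM per kb in library 1 and 3.78 in library 2. The 22 steps after it ranged from 1.0 to 1.81 RPM per kb in library 1 (median 1.37) and from 1.74 to 3.41 in library 2 (median 2.53). Over background this was 2.58-fold to 4.65-fold in library 1 and 7.36-fold to 14.4-fold in library 2. The lowest step in library 2 began 180 kb from the summit, where 4 windows in a row, from 62056001 to 62058000, held no read placed at 1 site in either library, and in library 1 it began at 140 kb. The steps varied by 13.5% in library 1 and 15.4% in library 2 (coefficient of variation), where counting alone gives 6.51% and 5.99%. Across the 22 steps the libraries gave r = 0.71 (Pearson) and rho = 0.65 (Spearman), a description over neighbouring steps that share their mappability.

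After the first step, the fullest one lay close to the right edge of the locus. From 210 to 220 kb right of the summit library 1 held 1.81 RPM per kb (317 reads) and library 2 held 3.41 (373 reads). Within it and the next step, a region called in both libraries ran from 62083001 to 62091500, 8.5 kb, with 327 reads (18.6 RPM) in library 1 and 377 reads (34.5 RPM) in library 2. It stood 5.64-fold and 17.2-fold over background, the third by reads of the 54 regions of the locus after those at the starts of Myc and Pvt1. The rise was broad, with no summit that held unequal flanks in both libraries. In library 1 alone, the summit window from 62091001 had 160 reads in its left flank and 71 in its right (adjusted p = 2.4e-08, exact binomial test). In library 2 its flanks held 180 and 166 (adjusted p = 0.55, exact binomial test). The right edge of the locus did not end the tract: levels stayed at 1.45 and 3.15 RPM per kb from 230 to 240 kb, dropped to 0.843 and 1.45 at 240 to 250 kb, and reached 0.393 and 0.302 RPM per kb at 270 to 280 kb. The latter are 1.01-fold and 1.28-fold of background.

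**Figure D5:**
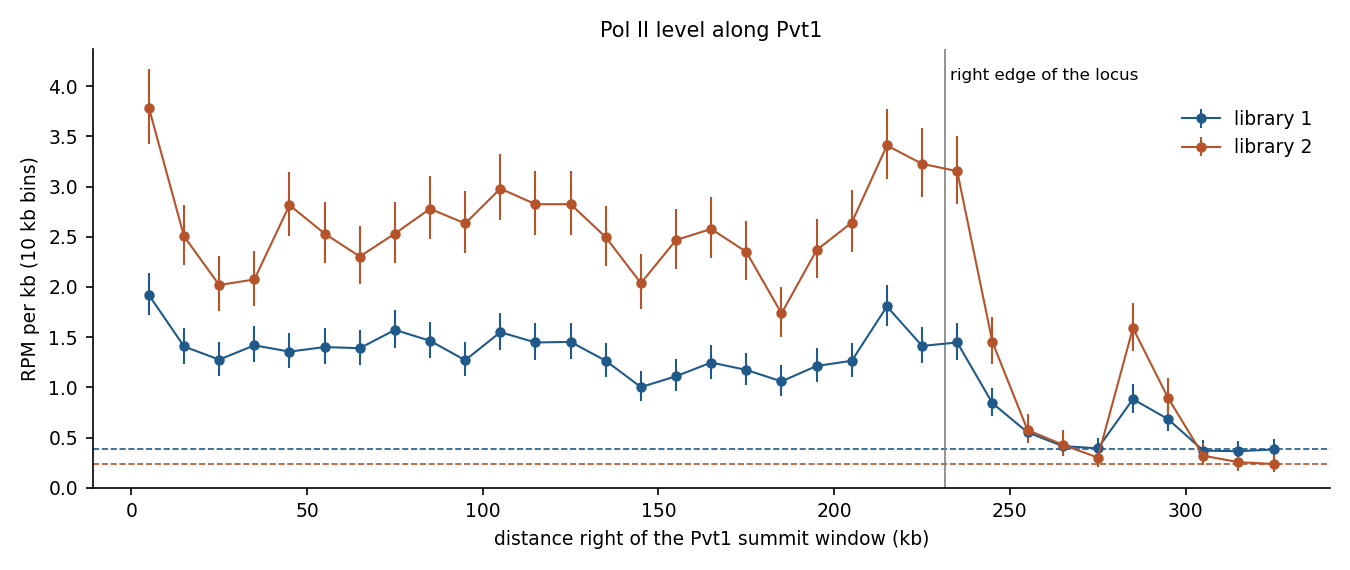
Level in RPM per kb in 10 kb steps against distance right of the Pvt1 summit window in kb, for library 1 and library 2, with exact 95% Poisson intervals as bars and each library's background as a dashed line. The level varies but stays above background to 200 kb and rises at 210 to 240 kb. It returns to background near 270 kb, past the right edge of the locus, before a smaller rise at 280 to 300 kb.

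In 5 kb bins the Pvt1 tract was unbroken. All 47 bins from 61865001 to the right edge passed in both libraries, as did the 3 that hold Myc and end at 61825000, against 22.4% of the 494535 bins tested in the genome. The run of called bins that holds the Pvt1 summit went on to 62125000, 260 kb in all. It ranked 46 by length among 26847 such runs, whose median was 10 kb and whose longest was 630 kb.

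Single sites within the Pvt1 body rose little above their surroundings. The 52 regions called in both libraries after the first were fragments of the tract, and over the 54 regions of the locus the median width was 1.5 kb. Apart from the Myc and Pvt1 starts and the window from 61821001, 3 summits of the genome lay in the locus. One was the window from 61987501, 119 kb right of the Pvt1 summit, with 16 reads (0.912 RPM) in library 1 and 35 reads (3.20 RPM) in library 2. The window from 62087001 held 24 reads (1.37 RPM) and 32 reads (2.92 RPM), and that from 62091001 held 21 reads (1.20 RPM) and 33 reads (3.02 RPM). Each of these stood higher in RPM in library 2. When each window was judged against the 100 kb around it, 16 windows of the Myc region, the 4 at the start of Pvt1 and the window from 62087001 were still called in both libraries, 21 in all.

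Reads at the Pvt1 summit leaned to the right, the direction of the gene. The flanks from 1 to 5 kb held 110 reads on the right and 42 on the left in library 1, a ratio of 2.62 (1.82 to 3.83), and 154 and 34 in library 2, a ratio of 4.53 (3.11 to 6.78). The adjusted p was 1.6e-07 and 1.5e-18 by the exact binomial test. With flanks of 1 to 3 kb, library 1 held 52 reads against 33 and no longer passed (adjusted p = 0.10, exact binomial test), while library 2 held 79 against 29 (adjusted p = 7.0e-06). With Myc and the window from 61821001, 3 of the 6 summits of the locus leaned significantly to 1 side, the same in each library, against 41.1% of all summits. The leans of Myc and of the window from 61821001 rest on nearly the same reads between them. The share also lay near that of the genome, so nothing about the locus is read from it.

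In how far the summit stood above its fuller flank, the 2 genes lay near the middle of the genome's summits. Summit over the fuller flank, per kb, was 3.12 in library 1 and 3.18 in library 2 for Myc, and 5.45 and 3.64 for Pvt1. The medians of all 12011 summits were 4.65 and 3.85. Of all summits, 37.0% and 42.1% had a lower ratio than Myc, and 56.2% and 47.3% had a lower ratio than Pvt1. Over its whole body Pvt1 had a ratio of summit to body of 6.32 in library 1 (4.96 to 7.94) and 4.96 in library 2 (3.86 to 6.28), a mean of 5.64 ± 0.96 (SD, n = 2).

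Few windows of the locus passed a test for a difference between the libraries. Of its 459 windows called in either library, 2 passed the test of library 1 against library 2 (exact binomial, scaled to shared calls), against 1.12% of such windows in the genome, and 35 had an unadjusted p under 0.05. Besides the Myc window from 61817001, this was the window from 62093001 in the Pvt1 tract, with 5 reads in library 1 (0.285 RPM) and 29 in library 2 (2.65 RPM). Of the 2, 1 was higher in each library. Scaling by all reads, which moves all log2 ratios by -0.72 toward library 2, gave 21 windows, each with more reads in library 2. With a trimmed mean in its place the ratios moved by 0.31 and 1 window passed, with more reads in library 1. Across the 632 windows, log2 RPM (pseudocount 0.1 RPM) gave r = 0.76 (Pearson) and rho = 0.72 (Spearman) between the libraries. Over the 215 windows called in both within the Pvt1 tract after its first region, r was 0.24 and rho 0.19. Windows are not replicates and share their mappability.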

How the data were processed

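Each deposited file gives, per chromosome, 1 signed offset for each aligned read, and keeps reads with 1 placement apart from those with 2. The authors aligned reads with Bowtie to mm8 (-e 70, -k 2, -m 2, -n 2, -l 36, --best), per the file headers, which name no Bowtie version. Per the labels' protocols, chromatin of 500 bp mean size was amplified by 18 cycles of PCR. Offsets were read as counted from 0 and reads as 36 bases long. Reads placed at more than 2 sites are lost, which lowers repeated sequence.

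Reads placed at 1 site were collapsed to 1 per start and strand, which removed 10.1% of library 1 and 4.54% of library 2, shifted 60 bp and counted in 500 bp windows, or in 5 kb bins. Background was the mean after 3 rounds of removing called windows, and fits covered the whole genome. Regions join called windows across gaps of 1 window. The tests were checked on simulated data drawn from the same Poisson and binomial models, so that check does not cover spread beyond counting error. The software was SciPy 1.17.1 and NumPy 2.4.6 in Python 3.11.15, with plots from matplotlib 3.10.9. The locus, its members, the tests and the alternatives were chosen with earlier results of these data known. Named windows are the summits of Myc and Pvt1 and the regions called in both with the most reads; others, such as those that passed a test or the pieces of the Myc body, were picked after their values were seen. Genes of the Myc network and cell type markers were not evaluated, as no annotation of mm8 was used.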

Additional observations from a re-analysis of the deposited data

Results flagged for a closer look

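Reads placed at 2 sites, which were used in an alternative and not in the comparisons of the report, also fell in the locus, and no control sample gives a level to set them against. After collapsing repeated starts, library 1 had 119 of them and library 2 had 134, and 84 windows of the locus held any. Windows with at least 3 numbered 8 in library 1 and 8 in library 2. The reads clustered at a few places inside the Pvt1 tract. The window from 61882001 held 12 in library 1 and 18 in library 2, where reads placed at 1 site numbered 2 in each. The window from 62048001 held 13 in each library, beside 6 and 2 reads placed at 1 site. The Myc summit window held none, and at most 2 lay in the Myc region in each library.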

How the results depend on the processing

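Of 168 values of 17 results under 18 alternatives, 140 kept their direction and their side of the threshold or stayed within the stated range, 27 moved and 1 lost its call. No tested result changed sign, but the ratio of the Myc to the Pvt1 summit, which has no call, turned from 1.31 to 0.81 on the grid moved by 250 bp. Each alternative that repeats the test on both libraries left the Myc and Pvt1 summits called. Against a local background, 26 windows were called in library 1, 38 in library 2 and 21 in both, with 1 left in the Pvt1 body, since the tract itself then sets the background. A negative binomial background gave 96 in library 1, 88 in both and 68 in the Pvt1 body. A threshold of 0.0001 gave 123, 110 and 90, and 0 windows that differed between the libraries. For these backgrounds and this threshold the genome's share of called windows was not recorded. Leaving out each library in turn put the called windows at 257 to 450, those in the Pvt1 body at 234 to 424, summits with unequal flanks at 3 to 7 and regions outside the genes at 0 to 1. With flanks of 1 to 3 kb the mean log2 ratio at Pvt1 was 1.05 (adjusted p = 0.10, exact binomial test). The Myc ratio of summit to body was 3.37 with all reads kept, 1.93 with the grid moved by 250 bp, 5.21 and 2.04 with summits of 250 and 1000 bp, 3.44 with the body from 2 kb and 2.91 with 500 bp centred on the highest 50 bp, an alternative chosen after seeing the data. Windows that differed between the libraries numbered 1 without a shift, with a shift of 100 bp, on the moved grid and with trimmed-mean scaling, and 21 with scaling by all reads. No paired analysis was possible because all samples form 1 group.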

Other observations

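Right of the locus, a smaller rise followed the end of the Pvt1 tract. From 280 to 290 kb right of the Pvt1 summit, 62148501 to 62158500, library 1 held 155 reads (0.883 RPM per kb) and library 2 held 174 (1.59 RPM per kb), 2.27-fold and 6.74-fold over background. At 300 to 310 kb both were near background again, at 0.953-fold and 1.35-fold. Repeated starts were more frequent in the Myc summit window than over the locus as a whole, 20.3% of its alignments in library 1 and 18.6% in library 2, against 11.0% and 4.09%. In the Pvt1 summit window they were 10.5% and 9.76%. Reads are denser in the Myc summit window, where starts filled 10.6% and 8.3% of positions and strands, against 1.07% and 1.18% over the locus. Whether density alone gives the repeats was not tested.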
